A study of Mus musculus with 3 samples.

Results

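The 85 nuclear genes described here encode subunits and assembly factors of the mitochondrial machinery for oxidative phosphorylation, and they were measured in immune cells of the mouse aorta. They were chosen by symbol from the 32285 genes of the deposited matrices. The choice took every symbol that opens with Atp5, Uqcr, Ndufv, Ndufs, Ndufc, Ndufb or Ndufa, the 4 Sdh genes, and Cox4i1, Cox5a, Cox5b, Cox6a1, Cox6b1, Cox6c, Cox7a2, Cox7b, Cox7c and Cox8a. One pseudogene symbol was left out. By complex, 36 genes belong to complex I, 4 to complex II, 8 to complex III, 12 to complex IV, 17 to ATP synthase (complex V) and 8 are assembly factors of complex I, whose symbols open with Ndufaf. Ndufa4 and its paralog Ndufa4l2 were counted with complex IV, where Ndufa4 is now placed. The rule itself uses no measured value, but it was set with earlier results of these data known.

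Oxidative phosphorylation makes ATP in the inner mitochondrial membrane. Complexes I and II feed electrons from NADH and succinate to ubiquinone, complexes III and IV pass them on to oxygen, and complexes I, III and IV pump protons whose return through ATP synthase drives ATP synthesis. Most subunits are encoded in the nucleus and a small core in the mitochondrial genome, so the complexes are built from both. Among leukocytes, neutrophils are known for relying mainly on glycolysis, while proliferating lymphocytes expand their mitochondria.

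Whole aortas including the adventitia were digested, live nucleated CD45+ cells were sorted, and each of 3 groups gave 1 droplet library with the Chromium 3' version 3 chemistry. All mice carried the ApoE-/- genotype on C57BL/6J, so the group labelled Control is also ApoE-/-. Mice of the group labelled HHcy drank water with homocysteine (1.8 g/L) over 4 weeks, those of the group labelled WD ate a western diet over 4 weeks, and the third group is labelled Control with no further treatment named. The age and sex of the mice, and the number pooled in a library, are not given in the sources used here. Groups could not be tested against each other from 1 library each, and the intervals given for a library cover counting error only.

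The libraries held 7512, 9753 and 8557 barcodes in the order Control, HHcy and WD, with 66789257, 105180370 and 93164076 unique molecular identifiers (UMIs, each standing for 1 captured transcript). After filtering and removal of barcodes that carried markers of more than 1 lineage (9.44%, 20.3% and 19.99% of those that passed the filter), 5468, 6497 and 5369 cells were used. Pairs of libraries shared 20 to 24 barcodes. Apoe went against the label of the HHcy library, at 374 CPM (a gene's UMIs per 1000000 UMIs of the cells counted) against 16.3 in the Control library and 19.3 in the WD library. It is therefore called the library labelled HHcy, and every direction drawn from it carries this reservation. Cells were grouped by marker genes into B cell-like, T cell-like, macrophage or monocyte-like, conventional dendritic cell-like (cDC-like) and neutrophil-like classes, without the 85 genes among the genes used for clustering. Ptprc, the gene of CD45, was present in all 5 classes, from 576 CPM in cDC-like cells of the WD library to 1167 CPM in T cell-like cells of the Control library. The 85 genes made up 1.48%, 1.40% and 1.49% of all UMIs in the 3 libraries.

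All 85 genes have a gene model in the GENCODE M21 annotation of GRCm38, on 19 chromosomes, with 3 genes on the X chromosome and up to 7 on 1 chromosome (chromosome 2). Exons of 29 of them overlap an exon of a gene on the opposite strand and 5 overlap one on the same strand. Strand-specific counting is not stated in the sources used here. Ndufs3, Ndufb6, Ndufaf2, Ndufaf3 and Cox4i1 are among the genes with an overlap on the opposite strand. Whether that overlap adds to their levels was not tested. Atp5g2 overlaps Mir688 on the same strand, and its level may include reads of that gene. RefSeq promoter windows on GRCm38.p6 were matched for 70 of the 85 genes. The windows of 5 genes are printed because the class comparisons below turn on these genes. They are the 3 genes for the c subunit of ATP synthase, which share one mature protein but have separate promoters, and the assembly factor genes Ndufaf4 and Ndufaf7, which differed between classes in opposite directions. Each sequence runs 5′ to 3′ on the strand of the gene, from 250 bases before the start of the transcript to 30 bases after it, and capitals mark the letters of a searched motif.
Atp5g1: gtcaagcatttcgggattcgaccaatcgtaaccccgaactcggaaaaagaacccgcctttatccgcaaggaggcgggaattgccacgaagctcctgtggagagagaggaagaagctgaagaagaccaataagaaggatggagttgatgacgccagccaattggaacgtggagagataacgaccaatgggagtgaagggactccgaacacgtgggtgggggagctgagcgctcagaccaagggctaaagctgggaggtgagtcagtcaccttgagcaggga
Atp5g2: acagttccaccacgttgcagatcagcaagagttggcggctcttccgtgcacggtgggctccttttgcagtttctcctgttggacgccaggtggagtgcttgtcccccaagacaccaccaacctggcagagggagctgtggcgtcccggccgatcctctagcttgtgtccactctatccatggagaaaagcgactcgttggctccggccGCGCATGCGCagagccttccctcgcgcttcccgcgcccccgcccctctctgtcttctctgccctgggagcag
Atp5g3: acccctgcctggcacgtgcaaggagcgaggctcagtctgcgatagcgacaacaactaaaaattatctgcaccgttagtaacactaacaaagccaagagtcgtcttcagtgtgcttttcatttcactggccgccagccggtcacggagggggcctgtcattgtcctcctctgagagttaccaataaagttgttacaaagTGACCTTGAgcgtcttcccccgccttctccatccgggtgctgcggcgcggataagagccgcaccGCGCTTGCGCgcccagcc
Ndufaf4: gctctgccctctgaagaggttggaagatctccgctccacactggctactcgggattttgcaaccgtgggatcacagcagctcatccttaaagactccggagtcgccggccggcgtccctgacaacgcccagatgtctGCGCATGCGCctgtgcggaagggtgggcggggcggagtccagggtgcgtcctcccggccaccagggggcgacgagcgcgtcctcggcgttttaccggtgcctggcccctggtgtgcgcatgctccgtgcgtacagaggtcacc
Ndufaf7: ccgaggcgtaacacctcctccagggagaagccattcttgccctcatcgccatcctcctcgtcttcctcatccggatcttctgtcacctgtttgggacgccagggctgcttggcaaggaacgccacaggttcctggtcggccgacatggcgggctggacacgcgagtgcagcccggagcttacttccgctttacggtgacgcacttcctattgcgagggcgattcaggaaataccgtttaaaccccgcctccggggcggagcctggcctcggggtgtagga

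The windows lie at chr11:96075602-96075881 on the minus strand for Atp5g1, chr15:102671018-102671297 on the minus strand for Atp5g2 and chr2:73911297-73911576 on the minus strand for Atp5g3. Those of Ndufaf4 and Ndufaf7 lie at chr4:24897833-24898112 and chr17:78936885-78937164, both on the plus strand. The searched motifs, on both strands, were GCGCA followed by any base and GCGC for NRF1, CCGGAAGT for ETS factors, AAGATGGC for YY1 and TCAAGGTCA for estrogen-related receptors (ERR), factors known from nuclear genes of mitochondrial proteins. They do not overlap each other in the printed windows. The NRF1 letters stand 42 bases before the start in Atp5g2, 113 bases before it in Ndufaf4 and 12 bases after it in Atp5g3. Atp5g3 also holds the ERR letters, on the strand opposite to the gene, 52 bases before its start. None of the searched letters was found in the windows of Atp5g1 and Ndufaf7. Over full windows that run to 50 bases after the start, the NRF1 letters were present in 26.7% of the 75 windows of the 70 matched genes and in 4.60% of all 32851 windows. The YY1 letters were present in 13.3% against 2.75%, the ETS letters in 6.67% against 3.89%, and the ERR letters in 2.67% against 0.423%. Over the 21263 windows of protein-coding genes, the closer background, the NRF1 letters were present in 6.38% and the YY1 letters in 3.05%. The ETS letters were present there in 5.145%, near the share in the set, and the ERR letters in 0.334%. A match describes the letters only and is no evidence of binding.

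The 85 genes differed widely in level. In 3' sequencing UMIs stand for transcripts and are not divided by length, so CPM of different genes are set side by side here, though capture may still differ from gene to gene. Over all cells used, the highest mean over the 3 libraries was that of Cox4i1, the largest nuclear subunit of cytochrome c oxidase, at 698 CPM. Atp5e, the epsilon subunit of ATP synthase, followed at 664 CPM, then Cox8a of complex IV at 584 CPM and Uqcrh, the hinge protein of complex III, at 564 CPM. The 10 highest genes held 33.6% of all UMIs of the set. In complex I the highest were the accessory subunits Ndufa2 (264 CPM) and Ndufa13 (260 CPM), and the lowest was Ndufs1, an iron-sulfur core subunit, at 25.4 CPM. The 4 subunits of complex II were even, between 46.4 CPM for the membrane anchor Sdhc and 74.3 CPM for the iron-sulfur subunit Sdhb. Of the 8 assembly factors, Ndufaf8 stood at 52.6 CPM and the others ran from 23.96 CPM for Ndufaf4 down to 4.92 CPM for Ndufaf6. Ndufa4l2, a paralog of Ndufa4 known as a hypoxia-induced gene, was the lowest member at 1.82 CPM.

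Ndufa4l2 was found mainly outside the immune classes. Of its UMIs, 11, 61 and 196 came from the fibroblast-like cells that passed the sort (34, 113 and 187 cells in the order Control, HHcy and WD), where it reached 50.9, 66.0 and 114 CPM. B cell-like cells held 0, 5 and 3 of its UMIs, and T cell-like cells held 0 in all 3 libraries. It was the only one of the 85 genes that did not pass the filter on low counts, so 84 were tested between classes. All of its levels in the 5 immune classes were below 1 CPM.

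The summed level separated the cell classes more than the libraries. The 85 genes held 1.40%, 1.34% and 1.35% of the UMIs of B cell-like cells in the Control library, the library labelled HHcy and the WD library (mean 1.36% ± 0.0329, SD, n = 3 libraries). In macrophage or monocyte-like cells they held 1.56%, 1.54% and 1.60%. In cDC-like cells they held 1.78%, 1.75% and 1.87%. The 3 classes did not overlap, and each kept its place in every library. T cell-like cells stood at 1.76%, 1.95% and 2.03% (mean 1.92% ± 0.137, SD, n = 3), a range that overlaps that of cDC-like cells. These shares are pooled over cells, so deep cells weigh more. The median share of single cells was 1.41%, 1.57% and 1.63% in T cell-like cells. It was 1.66%, 1.66% and 1.75% in cDC-like cells, above T cell-like cells in every library. Neutrophil-like cells were lowest at 0.889%, 0.703% and 0.725% (mean 0.773% ± 0.102, SD, n = 3), below every library of every other main class. These are percents of all UMIs of the class, in which the 14 neutrophil markers alone summed to 232310, 249750 and 204460 CPM. The part of these abundant transcripts in the low percent was not tested. Neutrophil-like cells had median depths of 4577, 5039 and 3983 UMIs against 14759, 15508 and 16870 in cDC-like cells. With each cell of at least 1000 UMIs thinned to 1000, neutrophil-like cells stood at 0.815%, 0.690% and 0.684%. In that setting B cell-like cells stood at 1.30%, 1.27% and 1.29% and cDC-like cells at 1.69%, 1.69% and 1.79%. The part of depth in the level was not tested beyond these values.

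**Figure D1:**
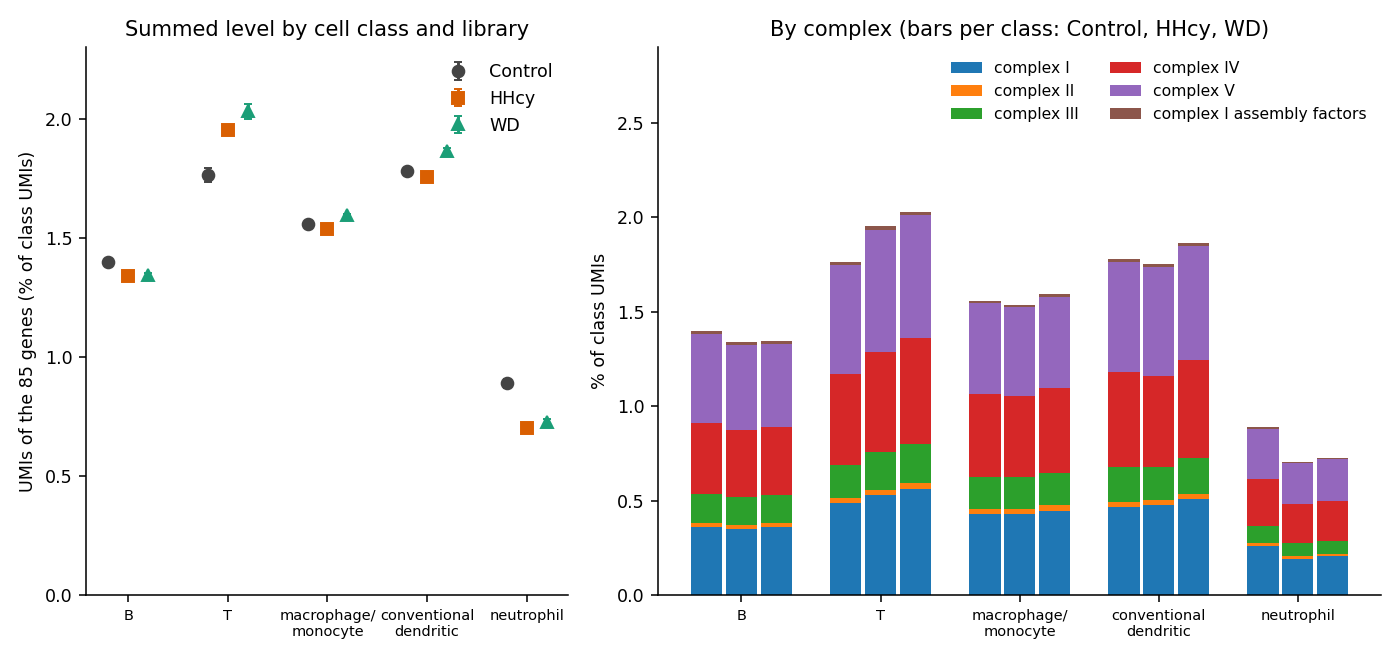
Summed level of the 85 genes by cell class. The left panel shows the percent of a class's UMIs in each library, with exact 95% intervals for counting error, and the stacked bars on the right show how the sum divides among complexes; neutrophil-like cells lie below 0.9% in all 3 libraries while the other main classes lie above 1.3%.

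The make-up of the sum by complex differed little between B cell-like and neutrophil-like cells. ATP synthase genes held 33.6%, 33.4% and 32.6% of the set's UMIs in B cell-like cells and 30.1%, 30.5% and 30.3% in neutrophil-like cells. Complex I genes held 25.7%, 26.1% and 26.7% in B cell-like cells and 29.3%, 27.4% and 28.5% in neutrophil-like cells. The proportions thus moved by a few percentage points between these classes, while the sums stood at 1.36% and 0.773%. Complex II, with 4 genes, held 1.30% to 1.82% of the set in neutrophil-like cells and 1.45% to 1.60% in B cell-like cells.

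Among B cell-like and T cell-like cells, sub-clusters with cell cycle genes among their leading genes carried the highest levels. In T cell-like cells that sub-cluster was also led by Dntt and Rag1. Among macrophage or monocyte-like cells the sub-cluster led by cell cycle genes was not the highest. These values are a description, since clusters were built on the same cells. The B cell-like sub-cluster led by Pclaf and Birc5, genes of DNA replication and cell division, held the 85 genes at 2.61%, 2.28% and 2.08% of its UMIs (77, 67 and 24 cells). The remaining B cell-like cells stood at 1.28%, 1.28% and 1.31%. The sub-cluster led by Pclaf and Birc5 was also deeper, at a median of 17335 UMIs per cell in the Control library against 7488 in the class. The part of depth was not tested. In that sub-cluster 79 of the 85 genes were above the other B cell-like cells in all 3 libraries. The same count was not made over all genes, so it does not set the 85 genes apart from others. Follicular-like sub-clusters were lower, with 1.20%, 1.21% and 1.15% in the largest of them, and B1-like sub-clusters ran from 1.18% to 1.33%. A B cell-like sub-cluster led by Mettl1 and Hspd1, genes of RNA modification and mitochondrial protein folding, held 1.87%, 1.91% and 1.60% (28, 118 and 14 cells).

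The T cell-like sub-cluster led by Dntt and Rag1, which act in the rearrangement of antigen receptor genes, and by histone and division genes reached 2.48%, 2.75% and 2.74%. It had only 16, 33 and 15 cells but held 26.2% of the T cell-like UMIs in the Control library and 32.1% in the WD library. In it 70 of the 85 genes were above the other T cell-like cells in all 3 libraries, a count not made over all genes. In the Control library its median depth was 11155 UMIs per cell against 3728 in the class, and the part of depth was not tested. Without this sub-cluster the T cell-like level was 1.51%, 1.58% and 1.69%. That level overlaps the macrophage or monocyte-like range and lies below that of cDC-like cells in every library. Naive-like T cells stood at 1.28%, 1.40% and 1.18%. T cell-like cells led by Ccl5 and Gzmb, genes of cytotoxic effector cells, stood at 1.67%, 1.81% and 1.99%.

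Macrophage or monocyte-like sub-clusters ran from 1.10% to 2.03%. Resident-like macrophages, led by Cd163 and Lyve1, were low at 1.21%, 1.25% and 1.25%, with 69 of the 85 genes below the other cells of the class in all 3 libraries. Classical monocyte-like cells stood at 1.84%, 1.90% and 2.03% and foamy-like macrophages led by Gpnmb at 1.89%, 1.90% and 1.90%. In this Gpnmb sub-cluster 72 of the 85 genes were above the rest of the class in all 3 libraries. Neither this count nor that of resident-like macrophages was made over all genes. Median depths in the Control library were 13741 UMIs per cell in the Gpnmb sub-cluster, 5012 in resident-like macrophages and 7520 in the class. The part of depth in these levels was not tested. A second, small foamy-like sub-cluster led by H2-M2 and Mmp13 was low at 1.29%, 1.10% and 1.24%. The sub-cluster led by the division genes Hist1h2ae and Birc5 held 1.81%, 1.66% and 1.86% (24, 5 and 76 cells), below classical monocyte-like cells and the Gpnmb sub-cluster in each library. Non-classical monocyte-like cells were lower, at 1.49%, 1.44% and 1.45%. Among neutrophil-like clusters, the smallest, led by the granule genes Fcnb and Camp, held 1.12%, 1.27% and 1.08% (27, 9 and 14 cells), and the largest, led by Cstdc4 and Asprv1, held 0.871%, 0.634% and 0.645% (113, 346 and 223 cells). The remaining cluster held 0.769%, 0.833% and 0.856% (55, 70 and 32 cells).

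**Figure D2:**
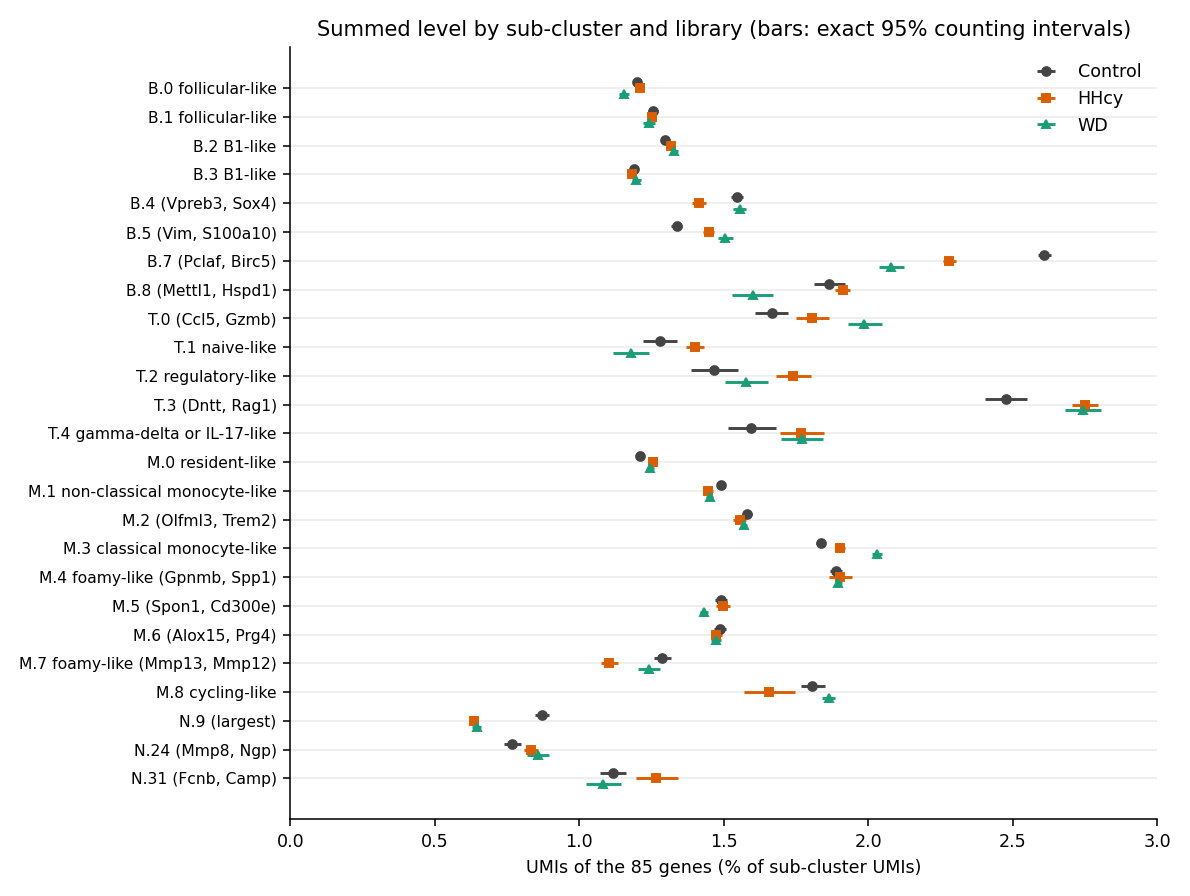
Percent of UMIs held by the 85 genes in sub-clusters of B cell-like, T cell-like and macrophage or monocyte-like cells and in each neutrophil-like cluster, 1 point per library. Not drawn is a B cell-like sub-cluster led by Gm26917 and Hexim1, at 0.642%, 0.568% and 1.02% in the order Control, HHcy and WD. A macrophage or monocyte-like sub-cluster led by Retnla and Lyz1, at 1.91%, 1.53% and 1.55%, is not drawn either. Sub-clusters with division genes among their leading genes lie above 2% among lymphocytes, and resident-like macrophages lie between 1.21% and 1.25%.

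Single genes were compared between classes over UMI sums per class and library, with the library as a block, by edgeR's quasi-likelihood test with Benjamini-Hochberg adjustment over 12857 genes. The 3 libraries served as replicates of the classes. A gene was called at an adjusted p under 0.05 and at least 1.5-fold. Class effects here are log2 fold changes after scaling by the trimmed mean of M-values (TMM), so they are relative to the bulk of genes. Several of the 6 contrasts share B cell-like or macrophage or monocyte-like sums and are not independent of each other.

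Against B cell-like cells, neutrophil-like cells had lower levels for 31 of the 84 tested genes and higher levels for 3. The background over all genes was 34.0% lower and 26.7% higher, so the share lower in the set (36.9%) was near that of all genes, and the share higher (3.57%) was below it. The median log2 fold change of the set was -0.42 against -0.24 for all genes. The genes called lower were 5 of 8 assembly factors, 8 of 17 ATP synthase genes and 14 of 36 complex I genes. They also were 2 of 8 complex III genes, 2 of 11 complex IV genes and 0 of 4 complex II genes. Several of these groups are small, and differences between them were not tested. The median log2 fold changes were -0.36, -0.21, -0.42, -0.30 and -0.44 in complexes I to V and -1.59 in assembly factors. Against macrophage or monocyte-like cells, 39 genes were lower and 1 higher, beside a background of 30.7% and 22.1%, with a median of -0.50 against -0.26 for all genes. Here 17 complex I genes, 8 ATP synthase genes and 5 assembly factors were lower.

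These counts depend on the scaling. With library totals alone the median of all genes was -0.81 and the set had 59 lower and 1 higher against B cell-like cells, and with median-of-ratios size factors it had 27 lower and 10 higher. Against macrophage or monocyte-like cells the same settings gave 72 lower and 0 higher (median of all genes -0.99), and 35 lower and 2 higher. The median of the set stayed below that of all genes by 0.15 to 0.17 against B cell-like cells and by 0.22 to 0.25 against macrophage or monocyte-like cells under the 3 scalings in edgeR. With doublets kept, 13 and 11 genes were lower in the respective contrasts.

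**Figure D3:**
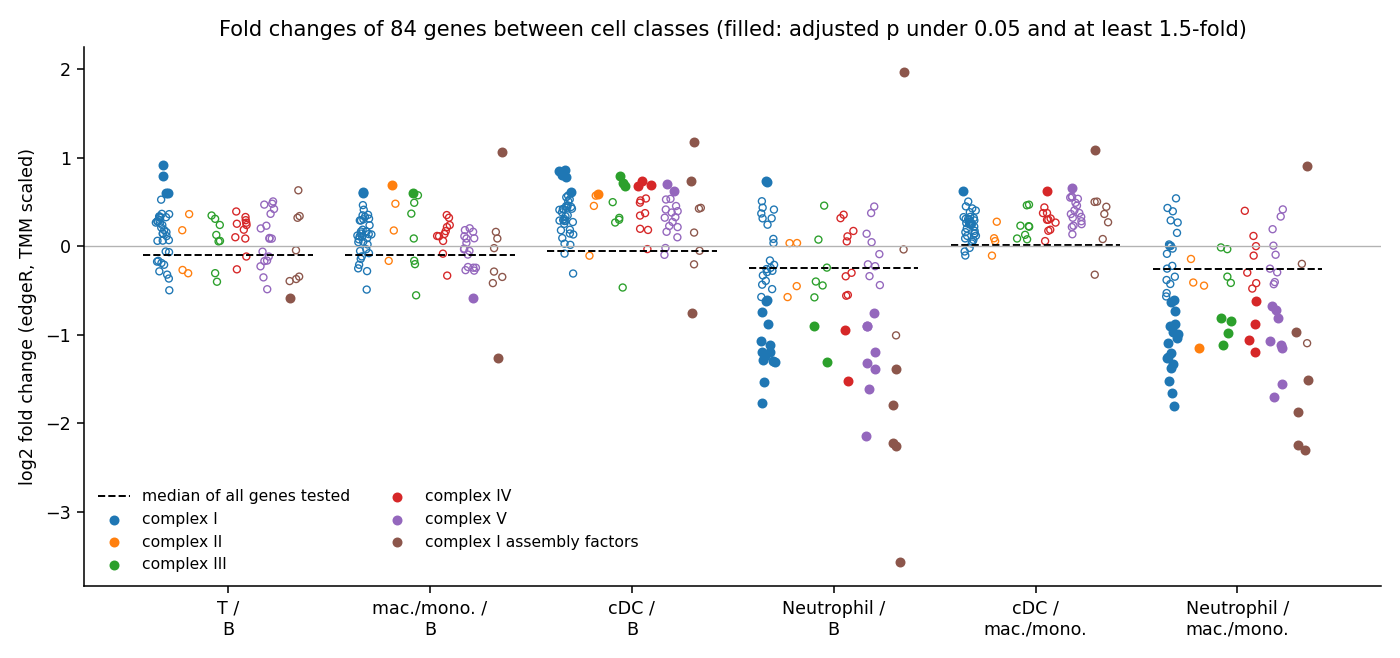
Log2 fold changes of the 84 tested genes in 6 contrasts between cell classes, 1 point per gene, coloured by complex and filled where called. Dashed lines mark the median of all 12857 genes; in both neutrophil contrasts the lowest point is Ndufaf4 and the highest is Ndufaf7.

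In both neutrophil contrasts the largest changes in the set, in either direction, were those of assembly factors. Ndufaf4, which works in early assembly of the arm of complex I that binds ubiquinone, was at 36.4, 32.9 and 30.5 CPM in B cell-like cells and 37.8, 30.04 and 39.3 CPM in T cell-like cells. It was at 17.1, 12.9 and 16.5 CPM in macrophage or monocyte-like cells and 20.7, 21.9 and 19.95 CPM in cDC-like cells. In neutrophil-like cells it was at 2.77, 1.95 and 0.825 CPM, from 3, 5 and 1 UMIs. Lymphocytes, the other myeloid classes and neutrophil-like cells thus formed 3 levels with no overlap between them. The log2 fold change against B cell-like cells was -3.56 in neutrophil-like cells (SE 0.287, edgeR adjusted p = 6.56e-09), -1.26 in macrophage or monocyte-like cells (SE 0.117, adjusted p = 3.56e-08) and -0.76 in cDC-like cells (SE 0.124, adjusted p = 4.3e-05). Against macrophage or monocyte-like cells neutrophil-like cells differed by -2.30 (SE 0.328, edgeR adjusted p = 1.2e-05), but only by -0.41 and without a call when doublets were kept.

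Ndufaf7, a mitochondrial methyltransferase needed for complex I assembly, went the other way. It was at 9.62, 10.2 and 10.4 CPM in B cell-like cells, 25.1, 23.97 and 20.9 CPM in macrophage or monocyte-like cells, and 24.9, 30.1 and 23.1 CPM in neutrophil-like cells. Each myeloid library lay above each B cell-like library, while neutrophil-like and macrophage or monocyte-like levels overlapped. The log2 fold change against B cell-like cells was 1.97 in neutrophil-like cells (SE 0.213, edgeR adjusted p = 2.97e-07) and 1.06 in macrophage or monocyte-like cells (SE 0.159, adjusted p = 1.28e-05). Both were called under every alternative tried, with values from 1.35 to 2.19 and from 0.95 to 1.24. Within the macrophage or monocyte class it was highest in classical monocyte-like cells (39.9, 37.6 and 40.8 CPM) and lower in resident-like macrophages (16.6, 15.5 and 14.1 CPM). In its call between neutrophil-like and macrophage or monocyte-like cells (0.91, SE 0.202, edgeR adjusted p = 0.000944) the value fell to 0.17 with library totals alone and lost the call.

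Other assembly factors were rare in neutrophil-like cells. Ndufaf2, a late assembly factor, was at 15.9, 14.7 and 14.0 CPM in B cell-like cells and at 1.85, 2.74 and 0.825 CPM in neutrophil-like cells (log2 fold change -2.26, SE 0.35, edgeR adjusted p = 2.21e-05). Ndufaf5, which hydroxylates an arginine of Ndufs7, gave 0, 2 and 2 UMIs in neutrophil-like cells, where the 0 of the Control library allows up to 2.77 CPM, against 6.13, 5.82 and 5.21 CPM in B cell-like cells. Ndufaf1 gave 1, 2 and 3 UMIs in neutrophil-like cells, and its call was lost without the library labelled HHcy (log2 fold change -1.41). Ndufaf8, the partner of Ndufaf5, was at 59.1, 55.9 and 57.0 CPM in B cell-like cells and at 23.1, 10.2 and 15.7 CPM in neutrophil-like cells. Ndufaf6 was the assembly factor that stood out in cDC-like cells. It was at 8.89, 8.13 and 9.78 CPM there against 3.73, 3.62 and 3.74 CPM in B cell-like cells (log2 fold change 1.18, SE 0.216, edgeR adjusted p = 0.000141) and was also higher than in macrophage or monocyte-like cells (1.09, SE 0.214, adjusted p = 0.000484).

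The 3 genes of the ATP synthase c subunit, which forms the rotor ring in the membrane, were not used in the same ratio. Atp5g2 was the main one in B cell-like cells at 427, 429 and 409 CPM, against 143, 156 and 151 CPM for Atp5g1 and 162, 146 and 149 CPM for Atp5g3. In neutrophil-like cells Atp5g2 was at 85.0, 50.4 and 67.6 CPM, Atp5g1 at 39.7, 30.5 and 32.2 CPM and Atp5g3 at 64.6, 35.2 and 42.1 CPM. All 3 were lower in neutrophil-like than in B cell-like cells, with log2 fold changes of -2.14 for Atp5g2 (SE 0.135, edgeR adjusted p = 2.33e-10), -1.61 for Atp5g1 (SE 0.15) and -1.20 for Atp5g3 (SE 0.137). Atp5g2 kept its call under every alternative tried, and with doublets kept the value was -1.07. In the myeloid classes the order of the genes differed in degree. Atp5g2 fell to 314, 299 and 330 CPM in macrophage or monocyte-like cells (log2 fold change against B cell-like cells -0.59, SE 0.119, edgeR adjusted p = 0.000287), a call lost under 10 of 15 alternatives, with -0.49 without the Control library and -0.53 without the library labelled HHcy. Atp5g1 rose in cDC-like cells to 208, 252 and 273 CPM (0.62, SE 0.123, edgeR adjusted p = 0.000286), and Atp5g3 was highest in T cell-like cells at 263, 292 and 287 CPM.

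**Figure D4:**
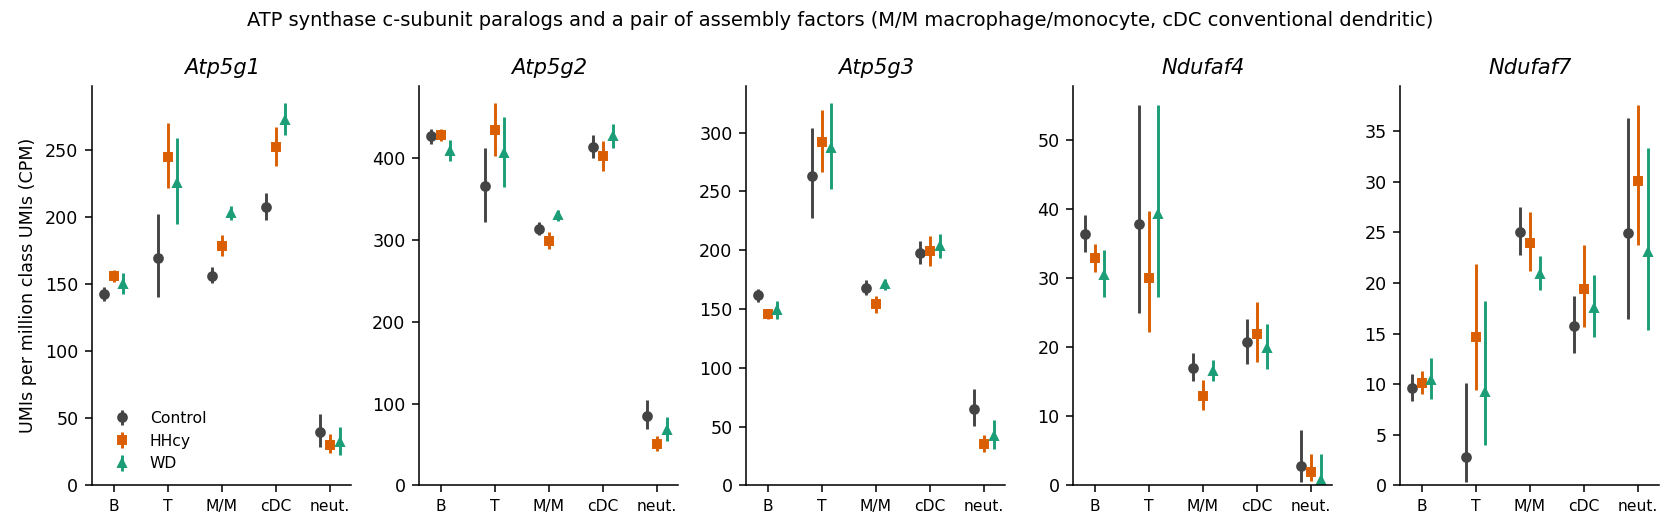
CPM of Atp5g1, Atp5g2, Atp5g3, Ndufaf4 and Ndufaf7 by cell class, 1 point per library. Ndufaf4 is lowest and Ndufaf7 is not reduced in neutrophil-like cells, and Atp5g2 exceeds both other c-subunit genes in every class and library shown.

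Not every subunit was low in neutrophil-like cells. Cox8a was at 476, 469 and 472 CPM there against 522, 580 and 552 CPM in B cell-like cells, and Atp5l, the g subunit of ATP synthase, was at 401, 395 and 394 CPM against 453, 407 and 414 CPM. Neither was called. Ndufb7 and Ndufb9, accessory subunits of the membrane arm of complex I, were called higher in neutrophil-like than B cell-like cells by 0.74 and 0.73 on the log2 scale. Their CPM overlapped between the classes, at 217, 147 and 137 against 144, 139 and 148 for Ndufb7, and with library totals alone the values were 0.20 and 0.17 without a call. Ndufb9 also lost its call without the library labelled HHcy (0.51). Among the lower genes, Ndufs3, a core subunit of complex I, was at 21.2, 7.04 and 9.07 CPM against 51.2, 59.2 and 56.6 CPM in B cell-like cells (log2 fold change -1.77, SE 0.228, edgeR adjusted p = 2.58e-06). Atp5a1, the alpha subunit of ATP synthase, was at 98.8, 58.2 and 62.7 CPM against 268, 277 and 267 CPM (-1.38, SE 0.152).

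Conventional dendritic cell-like cells had 16 genes higher and 1 lower than B cell-like cells, beside a background of 25.6% higher and 24.8% lower. The share called higher (19.0%) was below that of all genes. Of the 84 estimates 74 were positive, and the median was 0.38 against -0.05 for all genes. The genes share the same 3 libraries and are not replicates, so this count is a description. With median-of-ratios size factors or library totals alone, 24 were higher and 1 lower. The higher genes included Ndufb8 at 156, 186 and 200 CPM against 90.0, 96.2 and 95.8 CPM (0.86, SE 0.109, edgeR adjusted p = 2.37e-06). They also included Ndufb6 (0.85) and Ndufc2 (0.81), accessory subunits of the membrane arm of complex I, Uqcrb of complex III (0.80) and Ndufv2, an iron-sulfur core subunit of complex I (0.78). The lower gene was Ndufaf4. Against macrophage or monocyte-like cells 4 genes were higher in cDC-like cells and 0 lower, beside a background of 14.9% and 16.5%, with a median of 0.27 against 0.02 for all genes. They were Ndufaf6, Atp5f1 (0.66), Ndufa6 (0.63) and Cox7b (0.62). Without the Control library only Ndufaf6 remained, and Atp5f1, Ndufa6 and Cox7b were then at 0.57, 0.52 and 0.50.

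Macrophage or monocyte-like cells had 5 genes higher and 2 lower than B cell-like cells, beside a background of 28.1% and 29.2%, so far fewer of the set than of all genes were called. The median was 0.11 against -0.10 for all genes. Sdhc was at 57.5, 57.9 and 61.7 CPM against 33.5, 31.5 and 32.1 CPM (0.69, SE 0.123, edgeR adjusted p = 7.75e-05). Ndufc2 (0.61), Uqcr11 of complex III (0.61), Ndufb8 (0.60) and Ndufaf7 were the others higher. Without the Control library 9 were higher and 1 lower.

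T cell-like cells had 4 genes higher and 1 lower than B cell-like cells, beside a background of 14.8% and 17.4%, fewer than over all genes, with a median of 0.15 against -0.10 for all genes. Ndufv3, an accessory subunit of the NADH-oxidizing tip of complex I, was at 205, 169 and 208 CPM against 84.0, 69.1 and 76.6 CPM (0.91, SE 0.129, edgeR adjusted p = 1.95e-05). It kept its call under all 16 alternatives tried. Ndufb6 (0.79), Ndufa5 (0.61), Ndufa1 (0.60) and, lower, Ndufaf8 (-0.59) were the others. Of the Ndufa1 UMIs in T cell-like cells of the Control library, 102 of 247 came from 1 cell. Each of the 4 lost its call without the T cell-like sub-cluster led by Dntt and Rag1. Without that sub-cluster 1 gene was higher and 2 lower, and the median was -0.02. With library totals alone 40 were higher and 0 lower, with the median of all genes at 0.32, and without the Control library 7 were higher.

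Genes that work with the set but fall outside its rule were taken from lists of fixed membership. The median of the 13 subunits encoded in the mitochondrial genome went against that of the nuclear genes in 3 contrasts with B cell-like cells. The nuclear medians were 0.38 in cDC-like, 0.11 in macrophage or monocyte-like and 0.15 in T cell-like cells. Of the mitochondrial subunits 13 of 13 were lower in cDC-like than in B cell-like cells, with a median of -0.98, beside 24.8% of all genes. In macrophage or monocyte-like cells 11 of 13 were lower than in B cell-like cells (median -0.72), beside 29.2%, and in T cell-like cells 9 (median -0.60), beside 17.4%. In neutrophil-like cells 9 were lower than in B cell-like cells (median -0.71), beside 34.0%, while against macrophage or monocyte-like cells 1 was higher and 0 lower (median 0.12). Thus mt-Nd5, a proton-pumping subunit of complex I, was at 899, 750 and 794 CPM in B cell-like cells and 364, 350 and 312 CPM in cDC-like cells. Mitochondrial UMIs also entered the filter on cells, at most 10% per barcode, and they rise in damaged cells. The part of cell quality in these levels was not tested.

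Between neutrophil-like and B cell-like cells, most lists of mitochondrial genes had more lower than higher members. Lower were 60 of 78 genes of the mitochondrial ribosome (median -1.20), 25 of 39 further assembly factors (median -1.42), 10 of 17 genes of the tricarboxylic acid cycle (median -0.88) and 10 of 14 genes of uncoupling and import (median -1.38). The share over all genes was 34.0% and that of the 84 tested genes 36.9%. Fh1, fumarase of the tricarboxylic acid cycle, averaged 5.01 CPM in neutrophil-like cells and 77.5 CPM in cDC-like cells. Glycolysis went the other way, with 15 of 17 genes higher and 0 lower (median 1.48), where 26.7% of all genes were higher. Slc16a3, a lactate exporter, was at 625, 645 and 693 CPM in neutrophil-like cells and 2.40, 2.43 and 1.77 CPM in B cell-like cells. Among carriers and isoforms, Chchd10, a protein of the intermembrane space, was at 90.0, 155 and 124 CPM in B cell-like cells against 1.85, 3.13 and 2.47 CPM in neutrophil-like cells. Of 14 tested regulators of mitochondrial gene expression 4 were higher and 7 lower. Myc averaged 82.7 CPM in B cell-like cells and 3.11 CPM in neutrophil-like cells.

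Markers of other cells were measured in the neutrophil-like class. The summed B cell markers were at 187, 141 and 90.7 CPM with none of 13 at 0, the T cell markers at 14.8, 29.3 and 23.9 CPM with 2 of 17 at 0, and the macrophage and monocyte markers at 6176, 7526 and 6798 CPM with none of 26 at 0. Neutrophils also express some genes of the last list. The part of these RNAs in the neutrophil levels was not tested.

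Between libraries, UMI sums of a class were compared as ratios to the Control library, with exact intervals for counting error. A gene was marked at a 1.5-fold ratio with an interval leaving out no change. Both comparisons share the Control library, so a low or high Control value moves both. In B cell-like cells 0 of 84 genes were marked for the library labelled HHcy and 0 for WD, beside 3.13% higher and 6.73% lower of all genes in the first and 2.26% and 2.46% in the second. The medians were -0.03 for the library labelled HHcy and -0.0045 for WD, and single genes ranged from -0.52 to 0.34. In cDC-like cells 0 of 84 were marked in either, beside 3.77% and 2.57% of all genes for the library labelled HHcy and 4.08% and 4.74% for WD, with medians of 0.05 and 0.11.

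In macrophage or monocyte-like cells 0 genes were marked for the library labelled HHcy, beside 2.78% and 2.95% of all genes. For WD 1 was higher and 0 lower, beside 3.25% and 3.07%. The medians were 0.02 and 0.09. The marked gene was Ndufaf6, at 3.19 CPM in the Control library, 4.55 CPM in the library labelled HHcy and 5.86 CPM in the WD library (WD over Control 0.88, 95% interval 0.43 to 1.34). In these 3 classes the marked share of the set was below that of all genes in both comparisons.

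In T cell-like cells 5 of 78 genes with at least 100 UMIs were higher and 1 lower in the library labelled HHcy, beside 3.6% and 7.77% of all genes. In the WD library 7 were higher and 1 lower, beside 4.67% and 4.47%. The medians were 0.22 and 0.26, against -0.06 and 0.03 for all genes. Ndufa12, an accessory subunit of complex I, was at 75.7 CPM in the Control library, 125 CPM in the library labelled HHcy and 127 CPM in the WD library. Ndufa8 was at 70.1, 114 and 120 CPM, and Atp5d, the delta subunit of ATP synthase, at 182, 279 and 281 CPM. The Control library was the low one in each. Without the sub-cluster led by Dntt and Rag1, 1 gene was higher and 0 lower in each comparison, with medians of 0.08 and 0.23.

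The lower gene, Ndufa1, rested on 1 cell. It was at 346 CPM in the Control library against 180 CPM in the library labelled HHcy and 194 CPM in the WD library. Of its 247 UMIs in the Control library, 102 came from a single cell of the sub-cluster led by Dntt and Rag1, a cell with 12093 UMIs in all. Without that cell the Control level was 207 CPM. No other gene of the set with over 30 UMIs drew more than 22.4% of them from 1 cell in the T cell-like or neutrophil-like class. In the WD library 1 cell of the same sub-cluster, with 65601 UMIs, held the most UMIs of many genes, such as 18.3% of those of Ndufa9. Hbb-bs, a haemoglobin gene, was at 1295 CPM in T cell-like cells of the Control library against 0.613 and 5.78 CPM in the other two. Its part in these ratios was not tested.

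**Figure D5:**
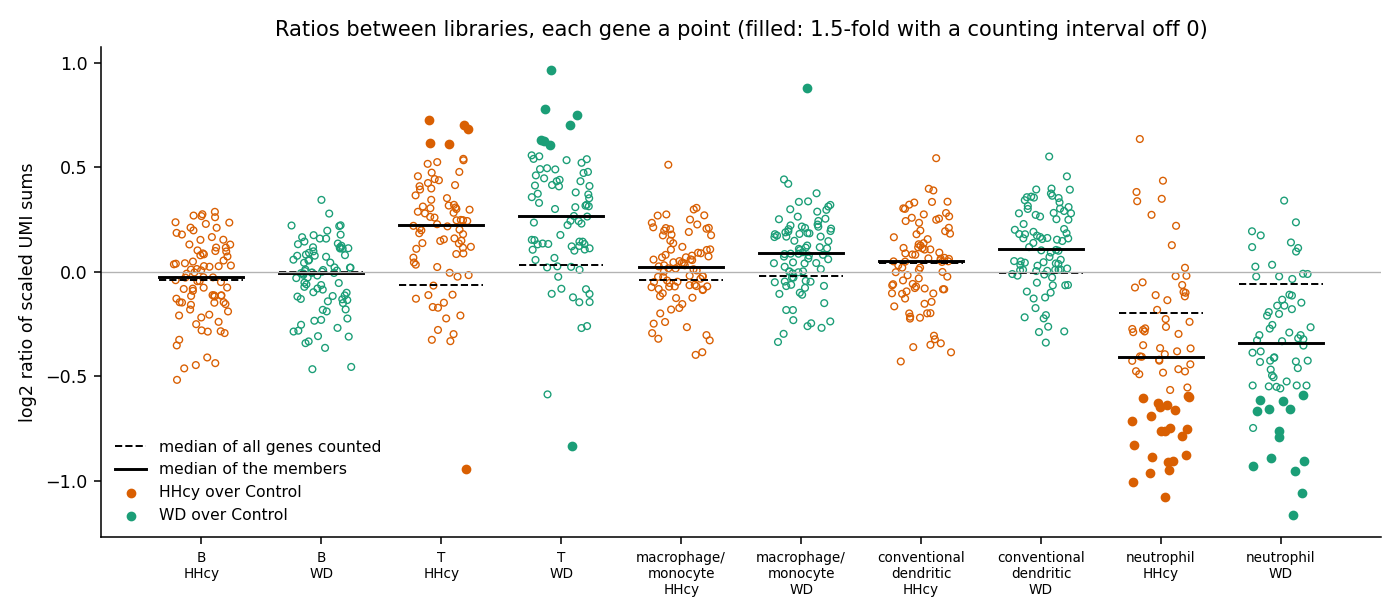
Log2 ratios of each gene's CPM to that in the Control library, for the libraries labelled HHcy and WD, by cell class. Solid lines mark the median of the set and dashed lines that of all genes tested; the medians lie within 0.12 of 0 in B cell-like, macrophage or monocyte-like and cDC-like cells, above 0.2 in T cell-like cells and below -0.3 in neutrophil-like cells.

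In neutrophil-like cells the set was lower in both libraries than in the Control library, but the direction depended on how the cells were chosen. Of 70 genes with at least 100 UMIs, 23 were lower and 0 higher in the library labelled HHcy, beside 19.8% lower and 5.38% higher of all genes. In the WD library 14 were lower and 0 higher, beside 8.81% and 4.69%. The medians were -0.41 and -0.34 against -0.20 and -0.06 for all genes. Ndufb6 was at 61.9 CPM in the Control library, 29.3 CPM in the library labelled HHcy and 29.7 CPM in the WD library (-1.08, interval -1.57 to -0.58, and -1.06, interval -1.69 to -0.45). Ndufb10 was at 65.6, 34.0 and 33.8 CPM, Ndufv3 at 108, 55.5 and 57.7 CPM and Ndufab1, the mitochondrial acyl carrier protein that is also a subunit of complex I, at 33.2, 18.0 and 14.8 CPM. The Control library was the high one in each.

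When barcodes with markers of more than 1 lineage were kept, the set held 1.03%, 1.05% and 1.10% of neutrophil-like UMIs, and the medians turned to 0.07 and 0.15. When each cell was named by its own markers the levels were 0.884%, 0.754% and 0.905%, and the median for WD turned to 0.09. In the largest neutrophil-like cluster alone the medians were -0.44 and -0.49. The other two clusters did not follow it, since the middle one was lowest in the Control library and the smallest was highest in the library labelled HHcy. The largest cluster was also the lowest in level for the library labelled HHcy and for WD, and it held 113 of 195 neutrophil-like cells in the Control library against 346 of 425 and 223 of 269. The part of this make-up in the ratio was not tested. Multiplets removed before this comparison made up 9.44% of the Control library and 20.3% and 19.99% of the others. The part of this removal in the ratio was not tested beyond these values.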

How the data were processed

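The authors deposited raw UMI counts per gene and cell barcode, with no normalization; per the file headers they come from Cell Ranger 4.0.0, while the submitters' processing notes name Cell Ranger 2.2.0 and mm10. Called barcodes were the input. Barcodes under 200 genes or over 10% mitochondrial UMIs were left out, and multiplets were removed by a marker rule set after the data were seen. Cells of the 3 libraries were clustered together (Leiden, leidenalg 0.10.2, resolution 1, seed 1, 2000 variable genes without the 85 genes, 30 components, 20 neighbours) and named from marker genes. UMIs were summed over 5 classes and 3 libraries, giving 15 sums, and tested with edgeR 4.0.16 (R 4.3.3) by the quasi-likelihood test with TMM scaling and the library as a block. A call needed an adjusted p under 0.05 and 1.5-fold. Library ratios used genes with at least 100 UMIs over the 3 libraries and exact conditional binomial 95% intervals. Levels per library carry exact Poisson intervals. Alternatives were DESeq2 1.42.0, other scalings, filters, cell choices, thinning to 1000 UMIs and leaving out each library. The tests were tried on simulated data with known changes.

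The members and all gene lists were chosen with earlier results of these data known. The genes named are the highest and lowest of each complex, up to 6 called genes with the largest change in each direction of a class contrast, up to 4 in each direction of a library comparison, and paralogs. Atp5a1 was named after its values were seen. Positions came from GENCODE M21 and promoters from RefSeq on GRCm38.p6. All 3 matrices belong to samples analysed here. Whether cells of 1 library came from several mice is not stated, so the spread over the 3 libraries of a class mixes treatments and may be technical.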

Additional observations from a re-analysis of the deposited data

How the results depend on the processing

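The 3 libraries are single, so leaving one out tests a class contrast on the other two, and no test of the library ratios exists. No paired analysis was possible because each group has 1 library; the class contrasts already carry the library as a block. Counts below are genes of the set that passed the call, and where a count moved by over 1.5 times the cause was not tested unless fewer cells or samples were used. Against B cell-like cells, DESeq2 and median-of-ratios size factors in edgeR each gave 8 higher and 0 lower in T cell-like cells, 8 higher and 1 lower in macrophage or monocyte-like cells and 10 higher in neutrophil-like cells, and each gave 2 higher in neutrophil-like against macrophage or monocyte-like cells. With library totals alone, T cell-like cells had 40 higher and 0 lower, macrophage or monocyte-like cells 9 higher and 1 lower, and neutrophil-like cells 1 higher and 59 lower than B cell-like cells. In that setting neutrophil-like cells had 0 higher and 72 lower, and cDC-like cells 1 higher, than macrophage or monocyte-like cells. Without the filter on low counts T cell-like cells had 2 higher and 2 lower than B cell-like cells. Leaving out each library gave 2 to 7 higher and 0 to 1 lower in T cell-like cells, 5 to 9 higher and 1 to 2 lower in macrophage or monocyte-like cells, and 1 to 4 higher in cDC-like against macrophage or monocyte-like cells.

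Under other choices of cells the counts against B cell-like cells were as follows. In T cell-like cells the lower count was 2 at 20% mitochondrial UMIs and after thinning, and 0 at 5%, with doublets kept, with cells named by their own markers, at resolution 2 and with the largest neutrophil-like cluster alone, and with doublets kept 11 were higher. Without the T cell-like sub-cluster led by Dntt and Rag1, 1 was higher and 2 lower, and the median turned to -0.019. In macrophage or monocyte-like cells 3 were higher at 20%, and 1 was lower at 5%, with doublets kept, with own markers, at resolution 2 and with the largest neutrophil-like cluster alone. In neutrophil-like cells doublets gave 1 higher and 13 lower, and own markers gave 5 higher. Against macrophage or monocyte-like cells, cDC-like cells had 7 higher at 20%, 1 at 5% and with doublets kept, 2 at resolution 2 and with the largest neutrophil-like cluster alone, and 10 after thinning. Neutrophil-like cells had 0 higher and 11 lower with doublets kept, 3 higher after thinning and 0 higher in their largest cluster alone. The last 2 choices, by neutrophil-like cluster and T cell-like sub-cluster, were added after seeing the data.

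The mean level over the libraries moved by more than its SD in these settings. Without mitochondrial and receptor genes in the total it was 1.45% in B cell-like and 1.62% in macrophage or monocyte-like cells. At 20% mitochondrial UMIs these were 1.32% and 1.52%, and at 5% they were 1.43% and 1.61%, with T cell-like cells at 2.06%. Doublets brought neutrophil-like cells to 1.06%. Thinning gave 1.29% in B cell-like, 1.63% in T cell-like, 1.43% in macrophage or monocyte-like and 1.72% in cDC-like cells. T cell-like cells without the sub-cluster led by Dntt and Rag1 stood at 1.60%. The order of neutrophil-like, B cell-like, macrophage or monocyte-like and cDC-like levels was the same in each. Among library ratios, 3 of 110 medians turned direction, all in neutrophil-like cells, to 0.073 and 0.15 with doublets kept and to 0.090 for WD with own markers. Of 583 repeats for named genes in class contrasts 72 lost the call and 0 turned direction. Depth limits the neutrophil-like class most, where 15 genes of the set had under 100 UMIs.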

Other observations

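Smaller classes, with few cells in a library, were left out of the tests. Their levels of the 85 genes were 2.35%, 2.26% and 2.198% in NK-like cells (19, 12 and 13 cells in the order Control, HHcy and WD) and 1.97%, 2.09% and 1.86% in plasmacytoid dendritic cell-like cells (3, 42 and 6 cells). Plasma cell-like cells held 2.15%, 1.65% and 1.65% (15, 80 and 17 cells), and mast cell-like cells held 1.61%, 1.63% and 1.45% (35, 24 and 12 cells). Cox6a2, an isoform of a complex IV subunit known from heart and muscle and outside the set, was at 686, 1098 and 1328 CPM in plasmacytoid dendritic cell-like cells and below 7 CPM in each of the other classes listed with it, from B cell-like cells to group 2 innate lymphoid-like cells.

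Across the genes of the set, the ratio between libraries was positively correlated with transcript length. Spearman's rho between the median length of a gene's coding transcripts and its log2 ratio to the Control library was 0.586 for the library labelled HHcy and 0.539 for WD in B cell-like cells, over 84 genes. In cDC-like cells it was 0.681 and 0.521, and in macrophage or monocyte-like cells 0.504 and 0.424. It was lower in T cell-like cells, at 0.323 and 0.386 over 78 genes, and in neutrophil-like cells, at 0.274 and 0.173 over 70 genes. Over all genes the same quantity ran from -0.295, in T cell-like cells for the library labelled HHcy, to 0.012, in neutrophil-like cells for WD, and it was negative in the other 8 of the 10 comparisons too. These are descriptions across genes, which share the same 3 libraries and are not replicates. Atp5k, the e subunit of ATP synthase with a median transcript of 321.5 bases, had a log2 ratio of -0.41 in B cell-like cells of the library labelled HHcy, and Uqcr11 -0.52.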
